A study of Mus musculus with 8 samples.

Results

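The genes described here are 10 members of the interleukin 1 (IL-1) family and the inflammasome, chosen by symbol from the 34745 Ensembl genes of a count table from mouse bone-marrow-derived macrophages. They are Il1a, Il1b, Il1rn, Il18, Il18bp, Il1rap, Nlrp3, Casp1, Pycard and Gsdmd. Each symbol matched 1 row, and 10 of the 10 passed the filter on low counts that left 14040 genes for testing. Messenger RNA was sequenced from primary macrophages grown from bone marrow in 20 ng/ml macrophage colony-stimulating factor (M-CSF). The 4 groups, of 2 libraries each, were KAT8-deficient cells given R848 at 100 ng/ml for 6 h, KAT8-deficient cells left untreated, WT cells given R848 in the same way, and untreated WT cells. KAT8 is a histone H4 acetyltransferase, and R848 (resiquimod) is an agonist of the endosomal RNA receptor TLR7. Titles call the deficient cells KAT8-cKO. The sources used here leave out the driver of the deletion, the deleted part of the gene, and the strain, age and sex of the mice. They also leave out whether libraries of 1 group stem from different mice or dishes, so p-values measure only the spread between these libraries, which may be technical.

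IL-1 alpha and IL-1 beta are inflammatory cytokines that act through the same receptor. IL-1 alpha is active as made, whereas IL-1 beta and IL-18 are made as inactive precursors that the protease caspase-1 cuts. Caspase-1 is switched on in the inflammasome, a complex of a sensor such as NLRP3 with the adaptor ASC, and it also cuts gasdermin D, which then forms pores in the plasma membrane. In macrophages, Toll-like receptor signals raise the transcripts of Il1b and Nlrp3, a step called priming, and a further signal assembles the complex. Messenger RNA shows the transcript part of this sequence. Cleavage, secretion and protein levels were not measured in these files.

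Kat8 itself, the targeted gene, stood at 9.94 and 10.4 CPM (counts per 1000000 of normalised library size) in R848-treated KAT8-deficient cells, against 18.0 and 16 in R848-treated WT cells. Untreated, it stood at 8.76 and 10.8 CPM in KAT8-deficient cells, against 17.0 and 17.9 in WT cells. Its transcript was thus lower in each deficient library than in each WT library, but well above 0 in all of them. The log2 difference was -0.74 under R848 (SE 0.12, edgeR adjusted p = 0.00553) and -0.83 untreated (SE 0.13, edgeR adjusted p = 0.0113). The call under R848 was lost without WT R848 replicate 1 (0.0526), and the untreated call without KAT8-deficient untreated replicate 1 (0.0881) or WT untreated replicate 1 (0.0518) or 2 (0.0589). Total counts ran from 18550977 to 21384532 per library, so that 3 counts correspond to 0.14 to 0.163 CPM. The macrophage markers were present in every group, with the 8 genes summing to 8550 to 9070 CPM in R848-treated KAT8-deficient, 8800 to 9650 in untreated KAT8-deficient, 14900 to 16400 in R848-treated WT and 15400 to 15500 in untreated WT cells. Most of that gap was Lyz2, a lysozyme gene with a near-identical copy. Without it the 7 others summed to 3350 to 3730 CPM, 3460 to 3700, 3910 to 4240 and 3760 to 3900 in the same group order. Markers of stromal and endothelial cells, with 13 of 13 having a count in at least 1 library, summed to 4070 to 4170 CPM in R848-treated KAT8-deficient, 4600 to 4840 in untreated KAT8-deficient, 2780 to 2980 in R848-treated WT and 3310 to 3830 in untreated WT cells. The endothelial markers Pecam1, at 0 to 3 counts per library, and Cdh5, at 0.214 to 1.87 CPM, added little to these sums. The cultures thus held stromal transcripts in all groups, and more of them in the deficient ones. Markers of neutrophils, a cell type rich in IL-1 transcripts, summed to 4.43 to 8.05 CPM over 9 genes in all 8 libraries. Ly6g was at 0 in each, and most of the sum came from S100a8. The S100a8 counts were 105 and 86 in both KAT8-deficient groups and in untreated WT cells. That repeat is unexplained, so the sum is uncertain. Among the neutrophil markers Camp, which encodes an antimicrobial peptide, had 3 and 2 counts in KAT8-deficient cells with R848 and 1 and 0 without it. In WT cells it had 14 and 15 counts with R848 and 1 and 0 without it. By edgeR it was higher with R848 in WT cells (adjusted p = 0.00934) and lower in KAT8-deficient than in WT cells under R848 (adjusted p = 0.0304), the directions of Il1b. Ltf, on the same list but too low to be tested, went the other way in both. It had 3 and 0 counts with R848 and 15 and 4 without it in WT cells. In KAT8-deficient cells it had 8 and 3 counts with R848 and 0 and 7 without it. S100a9, Elane, Mpo, Ngp and Retnlg had from 0 to 8 counts per library. The part of these markers in the members' values was not tested. In bulk RNA, fewer cells of a type and less RNA per cell cannot be told apart.

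The promoter sequences of the members whose transcripts moved most, Il1a, Il1b and Nlrp3, are shown first, with Pycard as a member that passed no test. Each is the 250 bases before a RefSeq transcription start, written 5′ to 3′ on the strand of the gene. Capitals mark matches on either strand to a set of 5 motifs, namely the NF-kB core (GGGA, 4 free bases and CC), the AP-1 motif TGANTCA, the C/EBP motif TTGCNNAA, the PU.1 core GAGGAA and the TATA box TATAAA.
Il1a, chr2:129309973-129310222, GRCm38.p6, minus strand: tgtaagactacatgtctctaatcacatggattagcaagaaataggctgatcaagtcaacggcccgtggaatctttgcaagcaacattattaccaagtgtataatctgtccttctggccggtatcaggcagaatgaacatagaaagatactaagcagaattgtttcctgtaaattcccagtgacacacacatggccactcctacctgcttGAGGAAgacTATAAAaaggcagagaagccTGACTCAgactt
Il1b, chr2:129371140-129371389, GRCm38.p6, minus strand: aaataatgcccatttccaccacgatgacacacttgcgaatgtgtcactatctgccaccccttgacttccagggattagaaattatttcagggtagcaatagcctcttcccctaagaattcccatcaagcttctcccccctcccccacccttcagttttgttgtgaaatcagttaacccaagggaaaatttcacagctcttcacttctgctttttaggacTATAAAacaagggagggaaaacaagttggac
Nlrp3, chr11:59541319-59541568, GRCm38.p6, plus strand: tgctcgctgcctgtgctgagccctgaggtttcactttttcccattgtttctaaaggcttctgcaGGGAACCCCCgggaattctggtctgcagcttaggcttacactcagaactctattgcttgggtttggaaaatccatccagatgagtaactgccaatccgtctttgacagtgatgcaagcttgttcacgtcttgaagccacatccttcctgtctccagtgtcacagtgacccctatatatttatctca
Pycard, chr7:127993868-127994117, GRCm38.p6, minus strand: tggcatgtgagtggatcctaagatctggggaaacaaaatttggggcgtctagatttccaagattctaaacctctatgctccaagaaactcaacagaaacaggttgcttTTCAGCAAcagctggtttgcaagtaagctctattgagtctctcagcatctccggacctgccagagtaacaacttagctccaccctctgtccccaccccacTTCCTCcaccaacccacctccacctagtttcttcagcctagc
The Il1a window held TATAAA from 32 to 27 bases before the start, with a PU.1 match at 41 to 36 and an AP-1 match at 12 to 6. In the Il1b window the only match was TATAAA, from 31 to 26 bases before the start. For Nlrp3, RefSeq lists 2 starts, and the window shown, before the start 1 base from that of the GENCODE gene, held an NF-kB match at 186 to 177. Its other window held 3 PU.1 matches. Pycard had a C/EBP match at 142 to 135 and a PU.1 match at 42 to 37. None of the matches overlapped. Of 32851 mouse promoter windows of this length, 12.4% held the TATA letters, 17.6% the NF-kB, 6.75% the AP-1, 9.56% the C/EBP and 23.3% the PU.1 letters. Among the 12 windows of the 9 members with an entry, TATA occurred in 3, NF-kB in 3, AP-1 in 2, C/EBP in 2 and PU.1 in 4. A match is a string of letters, not a measured binding site.

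The first question was how far R848 raised these genes in each genotype. In WT cells 6 of the 10 rose, Il1a, Il1b, Il1rn, Il1rap, Nlrp3 and Gsdmd, and 0 fell, where the share of all genes tested that passed was 6.94% for a rise and 6.7% for a fall. In KAT8-deficient cells only Il1a of the 10 rose, where 0.634% of all genes were called, 0.499% higher. The members' median log2 fold change was 0.20 in KAT8-deficient and 0.32 in WT cells, against 0.00 over all genes in each. In the same comparison of WT cells the macrophage markers Adgre1 (0.65, SE 0.061), Csf1r (0.36, SE 0.063) and Cd14 (1.21, SE 0.12) rose and Mertk (-0.66, SE 0.093) and Fcgr1 (-1.03, SE 0.14) fell. Of 12 stromal and endothelial markers 1 rose and 6 fell in WT cells, and 0 rose and 2 fell in KAT8-deficient cells. Their part in the members' responses was not tested. Calls are those of edgeR's quasi-likelihood test with a Benjamini-Hochberg adjusted p under 0.05 over 14040 genes.

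**Figure D1:**
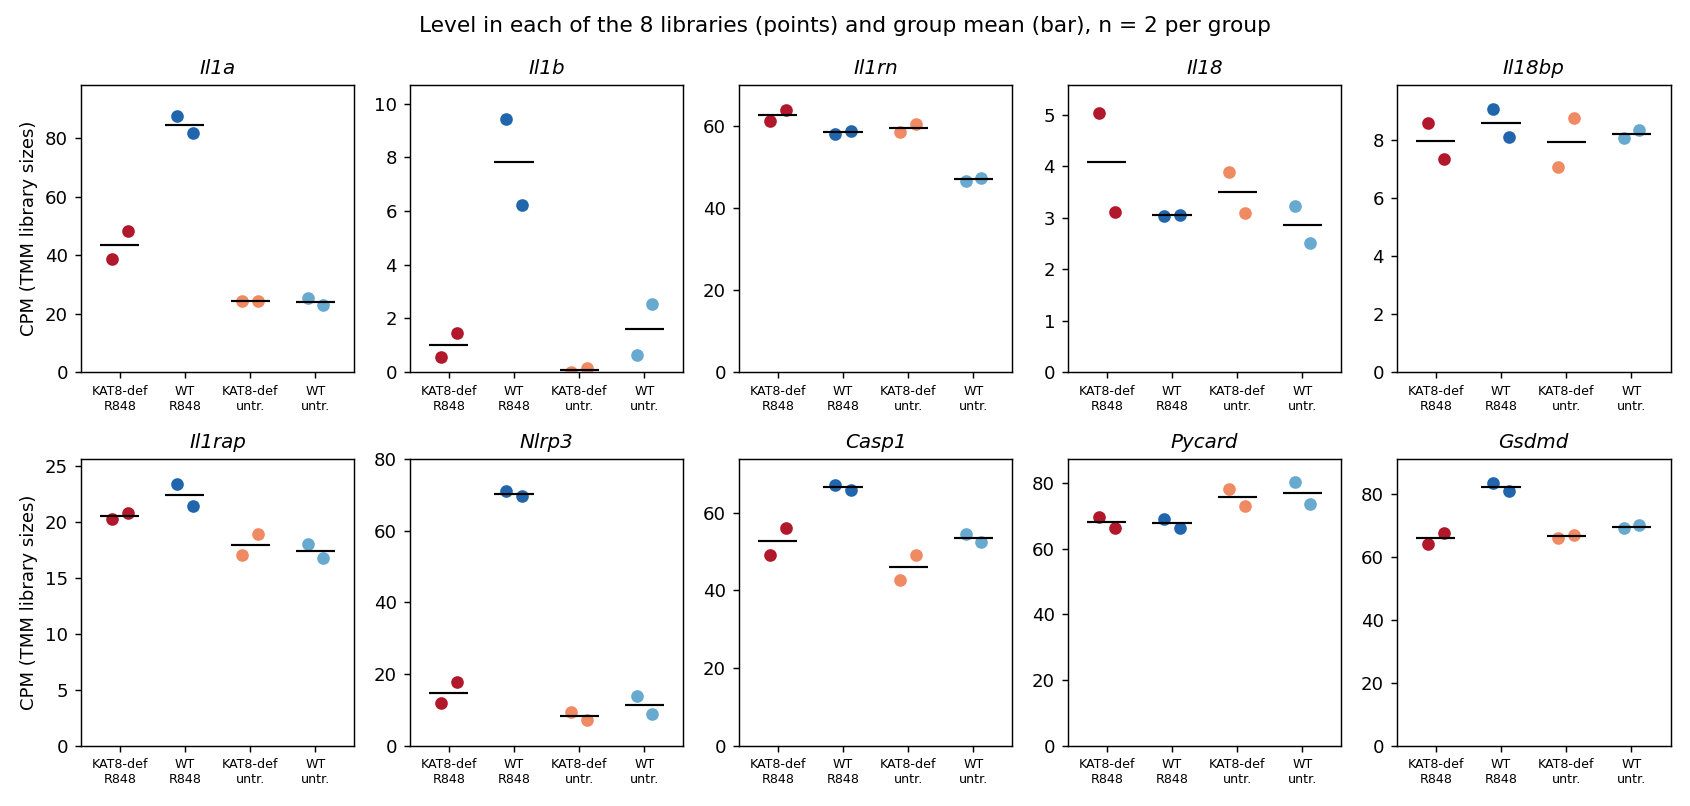
Level of each of the 10 genes in CPM (y axis, from 0) in the 8 libraries (points), by group, with the group mean as a bar (n = 2 each). Il1a, Il1b and Nlrp3 stood highest in R848-treated WT cells, while Il18, Il18bp and Pycard passed no test between groups.

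Il1a (ENSMUSG00000027399, chromosome 2, 129299610 to 129309972, GRCm38) stood at 38.7 and 48.2 CPM in R848-treated and 24.4 and 24.2 in untreated KAT8-deficient cells, and at 87.8 and 81.7 in R848-treated and 25.2 and 23.1 in untreated WT cells. The untreated libraries of both genotypes lay within about 2 CPM of each other, and the R848 libraries did not overlap between genotypes. Its response was 0.84 on the log2 scale in KAT8-deficient cells (SE 0.11, edgeR adjusted p = 0.0273) and 1.81 in WT cells (SE 0.11, edgeR adjusted p = 7.19e-05). As fold changes these are 1.79 and 3.51. The WT call held in all 8 processing alternatives and in all 8 fits that left out a library. The call in KAT8-deficient cells was lost without KAT8-deficient untreated replicate 1 (edgeR adjusted p = 0.176) or 2 (0.102), without WT R848 replicate 1 (0.0605) or 2 (0.057), and with only the 4 KAT8-deficient libraries (0.0903).

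Il1b (ENSMUSG00000027398, chromosome 2, 129364570 to 129371139, GRCm38), the neighbour of Il1a on the same strand, was the least abundant member by CPM in all groups but R848-treated WT cells, where it stood above Il18. It stood at 0.565 and 1.46 CPM in R848-treated and 0 and 0.16 in untreated KAT8-deficient cells, which are 12, 31, 0 and 3 counts. In WT cells it stood at 9.44 and 6.23 CPM under R848 and at 0.652 and 2.55 untreated, which are 177, 122, 14 and 47 counts. The WT groups did not overlap, although the untreated WT libraries lay nearly 4-fold apart. The WT response was 2.32 on the log2 scale (SE 0.56, edgeR adjusted p = 0.0258). That call was lost without WT R848 replicate 1 (1.98, edgeR adjusted p = 0.158) or 2 (2.58, 0.0566), without WT untreated replicate 1 (1.60, 0.0996), by DESeq2 (2.29, 0.128) and with robust estimation of the spread (2.32, 0.0792). Without WT untreated replicate 2 the response was 3.58 (0.017). In KAT8-deficient cells the ratio of R848 to untreated counts, per library size, was 12.8, with a 95% counting interval of 4.08 to 64.3 from 43 against 3 counts, and edgeR did not call it (adjusted p = 0.25).

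Il1rn encodes the IL-1 receptor antagonist, which occupies the receptor without signalling. It stood at 61.3 and 64.0 CPM in R848-treated and 58.5 and 60.6 in untreated KAT8-deficient cells, and at 58.2 and 58.7 in R848-treated and 46.7 and 47.3 in untreated WT cells. The untreated WT libraries were the low group, and the other 3 groups lay within a narrow band. Il1rn rose in WT cells by 0.31 (SE 0.063, edgeR adjusted p = 0.0124), while the value in KAT8-deficient cells was 0.07 (SE 0.063, edgeR adjusted p = 0.645). The WT call was lost without WT R848 replicate 1 (edgeR adjusted p = 0.0784) or 2 (0.0802) or WT untreated replicate 1 (0.0582).

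Il1rap encodes the co-receptor chain that IL-1, IL-33 and IL-36 receptors share. It stood at 20.2 and 20.8 CPM in R848-treated and 17.0 and 18.9 in untreated KAT8-deficient cells, and at 23.4 and 21.4 in R848-treated and 18.0 and 16.8 in untreated WT cells. Both genotypes had their R848 libraries above their untreated ones. The log2 response was 0.19 in KAT8-deficient cells (SE 0.099, edgeR adjusted p = 0.435) and 0.36 in WT cells (SE 0.099, edgeR adjusted p = 0.044). The WT call was marginal, as it passed in 0 of the 8 fits that left out a library (edgeR adjusted p from 0.0539 to 0.24) and did not pass by DESeq2 (0.146), without the low-count filter (0.0544) or with the 4 WT libraries alone (0.0729).

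Il18 and Il18bp, the cytokine IL-18 and the secreted protein that neutralises it, did not pass the test in any of the comparisons. Il18 stood at 5.04 and 3.11 CPM in R848-treated and 3.88 and 3.10 in untreated KAT8-deficient cells, and at 3.04 and 3.06 in R848-treated and 3.22 and 2.50 in untreated WT cells. Il18bp stood at 8.58 and 7.36 CPM in R848-treated and 7.08 and 8.77 in untreated KAT8-deficient cells, and at 9.07 and 8.12 in R848-treated and 8.06 and 8.36 in untreated WT cells. In both genes the R848 and untreated libraries of each genotype overlapped. For Il18 the R848 response was 0.22 (SE 0.26) in KAT8-deficient and 0.09 (SE 0.27) in WT cells, so at this depth a change of the size of that of Il1rn could not have been seen. Il18bp shares 80 exonic bases with Numa1 on the opposite strand, a gene at 118 to 163 CPM, and no source used here gives the strand setting of the counting, so its level is uncertain.

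Nlrp3 (ENSMUSG00000032691, chromosome 11, 59541568 to 59566956, GRCm38) encodes the sensor of the inflammasome. It stood at 12 and 17.7 CPM in R848-treated and 9.39 and 7.06 in untreated KAT8-deficient cells, and at 70.9 and 69.7 in R848-treated and 13.9 and 8.96 in untreated WT cells. The R848-treated WT libraries stood far above the other 6. The WT response was 2.61 on the log2 scale (SE 0.23, edgeR adjusted p = 0.000219), a fold change of 6.12, and passed in all 16 other fits. In KAT8-deficient cells the value was 0.85 (SE 0.24, edgeR adjusted p = 0.183), with R848 libraries above untreated ones. That response passed by DESeq2 (adjusted p = 0.00815) and in edgeR without the low-count filter (0.0387), among alternatives that ran up to 0.277.

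Casp1 (caspase-1) stood at 49.2 and 56.0 CPM in R848-treated and 42.7 and 49.1 in untreated KAT8-deficient cells, and at 67.2 and 65.8 in R848-treated and 54.5 and 52.4 in untreated WT cells. The R848-treated WT libraries were again the highest. The log2 response was 0.20 in KAT8-deficient (SE 0.091, edgeR adjusted p = 0.378) and 0.32 in WT cells (SE 0.090, edgeR adjusted p = 0.0521). The WT value lay just above the threshold and was called in 4 of 8 processing alternatives (adjusted p from 0.0316 to 0.0702). Gsdmd (gasdermin D) stood at 64.1 and 67.6 CPM in R848-treated and 66.1 and 66.9 in untreated KAT8-deficient cells, and at 83.4 and 80.9 in R848-treated and 69.1 and 70.0 in untreated WT cells. In Gsdmd 3 groups lay close together and R848-treated WT cells stood above them. Gsdmd rose in WT cells by 0.24 (SE 0.061, edgeR adjusted p = 0.0342), with -0.01 (SE 0.061, edgeR adjusted p = 0.943) in KAT8-deficient cells. The Gsdmd call was lost without any one of the 4 WT libraries or either untreated KAT8-deficient one (edgeR adjusted p up to 0.204), by DESeq2 (0.126), without the low-count filter (0.0607) and with the 4 WT libraries alone (0.0638).

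Pycard (ENSMUSG00000030793, chromosome 7, 127989708 to 127993867, GRCm38) encodes the adaptor ASC and lies 63.9 kb from Kat8. It stood at 69.6 and 66.4 CPM in R848-treated and 78.1 and 73.1 in untreated KAT8-deficient cells, and at 69.1 and 66.3 in R848-treated and 80.2 and 73.6 in untreated WT cells. The levels lay close between genotypes, and in both the R848 libraries lay below the untreated ones. Its log2 response was -0.15 (SE 0.071, edgeR adjusted p = 0.384) in KAT8-deficient and -0.19 (SE 0.072, edgeR adjusted p = 0.132) in WT cells. Pycard was the 1 member with negative values in both genotypes that were larger than their SE.

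**Figure D2:**
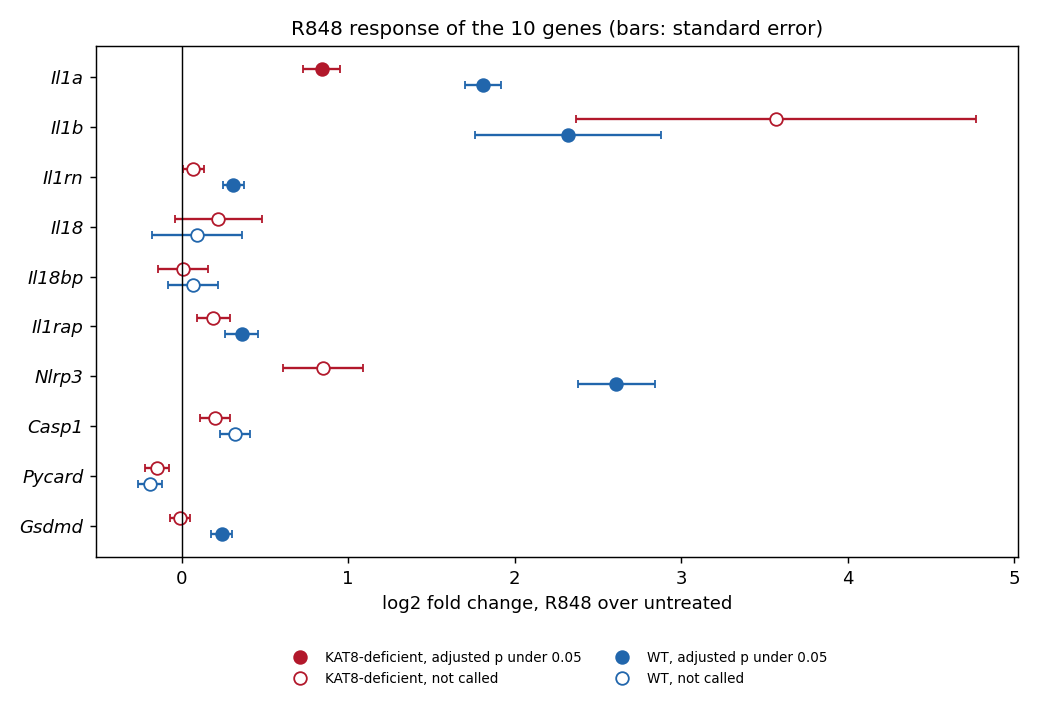
Log2 fold change of R848 over untreated (x axis) for the 10 genes, in KAT8-deficient cells (red) and WT cells (blue), with bars of 1 SE and filled points where the adjusted p was under 0.05. In WT cells 6 points are filled, led by Nlrp3 at 2.61, and in KAT8-deficient cells only that of Il1a, at 0.84.

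The next comparison set KAT8-deficient against WT cells, both under R848. Of the 10 members 5 were lower in KAT8-deficient cells, Il1a, Il1b, Nlrp3, Casp1 and Gsdmd, and 0 were higher, where 5.47% of all genes tested were called lower and 8.14% higher. The members' median log2 difference was -0.22, against -0.01 over all genes. In 8 of the 10 the libraries of the 2 groups did not overlap, against 59.4% of all genes. Nlrp3 was 4.73-fold lower in KAT8-deficient cells, or -2.24 on the log2 scale (SE 0.22, edgeR adjusted p = 0.000642). Il1b differed by a log2 value of -2.94 (SE 0.58, edgeR adjusted p = 0.0118), and Il1a by one of -0.96 (SE 0.10, edgeR adjusted p = 0.000881). Casp1 and Gsdmd differed by less, at -0.34 (SE 0.090, edgeR adjusted p = 0.0413) and -0.32 (SE 0.061, edgeR adjusted p = 0.0102). The 5 were both IL-1 agonists, the sensor, the protease and the pore-forming protein. The antagonist Il1rn (0.10, SE 0.063), the co-receptor Il1rap (-0.13, SE 0.098), Il18 (0.42, SE 0.26), Il18bp (-0.11, SE 0.15) and Pycard (0.01, SE 0.072) did not pass, with edgeR adjusted p from 0.341 for Il1rn and Il18 to 0.967 for Pycard.

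The Il1a and Nlrp3 calls under R848 held in all 16 other fits. The Il1b call was lost without KAT8-deficient R848 replicate 1 (-2.41, edgeR adjusted p = 0.0754) or WT R848 replicate 1 (-2.61, 0.083), and the Gsdmd call without the same libraries (0.0744 and 0.0877). Without KAT8-deficient R848 replicate 2 the Il1b difference was -3.77 (edgeR adjusted p = 0.0203). Casp1 was called in 3 of the 8 fits that left out a library, and lost without KAT8-deficient R848 replicate 1 (-0.24, edgeR adjusted p = 0.219), WT R848 replicate 1 (0.185) or 2 (0.13), WT untreated replicate 1 (0.0571) or 2 (0.0592), and with the 4 R848 libraries alone (0.0553). Beside these values, 4 of 8 macrophage markers were lower and 1, Fcgr1, was higher in R848-treated KAT8-deficient cells, among them the M-CSF receptor gene Csf1r at -0.39 (SE 0.064, edgeR adjusted p = 0.00473) and Adgre1 at -0.41 (SE 0.061, edgeR adjusted p = 0.00312). The other 2 lower markers were Lyz2 at -1.14 (SE 0.069) and the lipopolysaccharide co-receptor gene Cd14 at -0.65 (SE 0.11), and Fcgr1 stood at 1.09 (SE 0.14). The markers that passed no test were Cd68 at -0.17 (SE 0.058), Mertk at 0.29 (SE 0.093) and Itgam at 0.43 (SE 0.37). Among all 8 markers Il1a lay between Lyz2 and Cd14, and Casp1 and Gsdmd between Csf1r and Cd68. Nlrp3 and Il1b lay below all 8. Cd14 itself rose with R848 in WT cells (1.21, SE 0.12), so the markers are no plain measure of the share of macrophages, and this order is a description only. Of 12 stromal and endothelial markers tested 10 were higher and 0 lower, with a median of 0.44. The 1 negative value was that of the endothelial marker Cdh5 (-1.04, SE 0.41, edgeR adjusted p = 0.135). The part of the cell mixture in the members' differences was not tested.

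**Figure D3:**
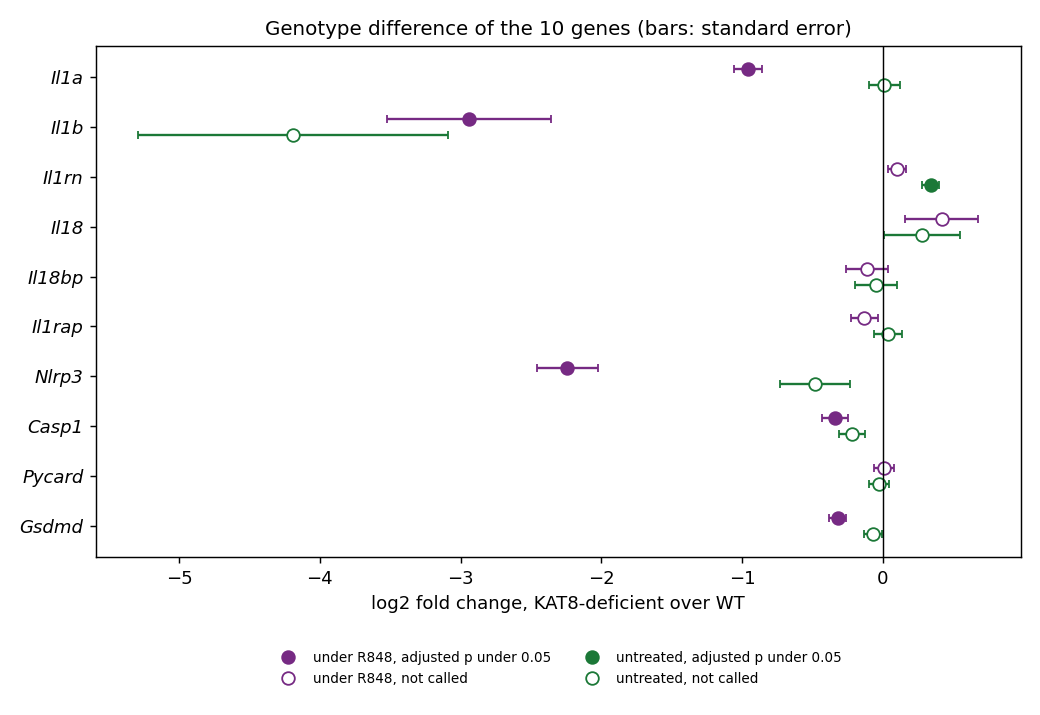
Log2 fold change of KAT8-deficient over WT cells (x axis) for the 10 genes, under R848 (purple) and untreated (green), with bars of 1 SE and filled points where the adjusted p was under 0.05. Under R848 the 5 filled points, from Gsdmd at -0.32 to Il1b at -2.94, lie below 0, and untreated only Il1rn is filled, at 0.34.

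In untreated cells, 1 of the 10 members differed by genotype, where 4.27% of all genes passed, 2.91% with a higher and 1.36% with a lower level. In 4 of the 10 the libraries of the genotypes did not overlap, against 50.4% of all genes. Il1rn was higher in KAT8-deficient cells, at 59.5 ± 1.44 CPM against 47.0 ± 0.433 CPM in WT cells (SD, n = 2 each), which is 0.34 on the log2 scale (SE 0.063, edgeR adjusted p = 0.0247). That call was lost without any one of the 4 untreated libraries (edgeR adjusted p from 0.0789 to 0.12), without WT R848 replicate 1 (0.0515) or 2 (0.0508), and with the 4 untreated libraries alone (0.0652). It shares its untreated WT libraries with the Il1rn response in WT cells. Beside it, 8 of 12 stromal and endothelial markers were higher and 0 lower in untreated KAT8-deficient cells, and their part in the Il1rn difference was not tested. Il1a stood level between genotypes, at a log2 value of 0.01 (SE 0.11, edgeR adjusted p = 0.979). Nlrp3 had one of -0.48 (SE 0.25, edgeR adjusted p = 0.327), with overlapping libraries. For Il1b, 3 counts in the KAT8-deficient libraries stood against 61 in the WT ones, a ratio of 0.052 per library size with a 95% counting interval of 0.0104 to 0.159. The edgeR test did not call it (adjusted p = 0.0816), whereas it passed by DESeq2 (0.0243) and in edgeR without the low-count filter (0.0117), within a range of 0.0117 to 0.165 over the alternatives. The interval covers counting error only, and the WT libraries themselves differed.

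Whether the R848 response itself differed between genotypes was tested as an interaction, in which a negative value means a smaller rise in KAT8-deficient than in WT cells. By edgeR 0 of the 10 members passed, where 0.228% of all genes were called. An unadjusted p under 0.05 was found for 4 (11.4% of all genes). DESeq2 called 2 of the 10, against 227 of all 14040 genes, and limma-voom 0, against 27. Nlrp3 had a difference of -1.76 (SE 0.33, edgeR adjusted p = 0.072) and Il1a one of -0.97 (SE 0.15, edgeR adjusted p = 0.0543). By DESeq2 their adjusted p were 1.92e-06 for Nlrp3 and 9.35e-05 for Il1a. Over the 7 processing alternatives they ran up to 0.145 and 0.0743, and without KAT8-deficient R848 replicate 2 edgeR called both (0.0257 for Nlrp3 and 0.0074 for Il1a). The other 2 with an unadjusted p under 0.05 were Il1rn at -0.24 (SE 0.089, edgeR adjusted p = 0.339) and Gsdmd at -0.25 (SE 0.086, edgeR adjusted p = 0.299). For Il1b the value was 1.25 (SE 1.5, edgeR adjusted p = 0.814), and with 3 counts in untreated KAT8-deficient cells the data do not fix even its sign. The responses of the 2 genotypes share no library, but share the estimate of the spread.

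Levels of different genes were set side by side as CPM per kb of exon, with all annotated exons of a gene merged. In untreated cells of either genotype Casp1 and Gsdmd led, at 30.6 and 28.0 CPM per kb in KAT8-deficient and 35.7 and 29.3 in WT cells, followed by Pycard at 19.9 and 20.2. Il1a and Il1rn came next, at 12.3 and 10.8 CPM per kb in KAT8-deficient and 12.2 and 8.49 in WT cells. Nlrp3 stood at 2.03 ± 0.407 CPM per kb in untreated KAT8-deficient and 2.82 ± 0.858 in untreated WT cells (SD, n = 2 each). Il18 and Il18bp stood at 3.39 and 2.62 CPM per kb in untreated KAT8-deficient and 2.77 and 2.71 in untreated WT cells, where they and Nlrp3 did not differ beyond their spread. Under R848 the order of the means changed in both genotypes. In WT cells Il1a, at 42.9 ± 2.19 CPM per kb, reached the level of Casp1, at 44.4 ± 0.661 (SD, n = 2 each). That pair did not differ beyond its spread. In R848-treated KAT8-deficient cells Il1a stood at 22.0 ± 3.39, below Gsdmd at 27.7 ± 1.06 (SD, n = 2 each). Its mean there lay above that of Pycard, whereas in untreated KAT8-deficient cells it lay below. On this scale Nlrp3 stood at 17.3 ± 0.209 CPM per kb and Pycard at 17.8 ± 0.513 in R848-treated WT cells (SD, n = 2 each). In R848-treated KAT8-deficient cells Nlrp3 was at 3.66 ± 0.988 and Pycard at 17.9 ± 0.593 CPM per kb (SD, n = 2 each). The levels of Pycard per kb are understated, because its merged exons span 3800 bases, most of the gene. The level of Il1rap, lowest or next to lowest in each group, is understated by this scale because its merged exons span 11360 bases of several isoforms. Those of Il1rn and Il18bp may be understated too, with merged exons of 5535 and 3026 bases. By CPM alone, untreated Il1rn stood above Il1a, at 59.5 against 24.3 in KAT8-deficient and 47.0 against 24.1 in WT cells.

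Set per kb within each library, agonist and antagonist transcripts stood in different proportion. The ratio of Il1rn to Il1a was 0.564 and 0.473 in R848-treated KAT8-deficient cells, against 0.236 and 0.256 in R848-treated WT cells. Untreated, it was 0.857 and 0.891 in KAT8-deficient cells, against 0.661 and 0.731 in WT cells. The deficient libraries thus lay above the WT ones in both states, by more than the gap between the libraries of a group. The absolute size of this ratio rests on the merged exon lengths, 5535 bases for Il1rn and 1974 for Il1a, and is uncertain. The ratio of Pycard to Nlrp3 was 6.18 and 4.01 in KAT8-deficient cells under R848 and 8.88 and 11 without it. In WT cells it was 1.04 and 1.02 under R848 and 6.17 and 8.77 without it. The ratio was thus lowest in R848-treated WT cells. Its absolute size is uncertain, as the level of Pycard per kb is understated. Il1a exceeded Il1b in each library with a count of Il1b, by 66.2 and 31.8 times in R848-treated KAT8-deficient and 8.98 and 12.7 times in R848-treated WT cells. With groups of 2 these ratios are a description without a test.

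The genes with the pattern most like that of Il1a over the 8 libraries, by the root mean square difference of log2 CPM centred on each gene's mean, were Cdc42ep2 (0.105), Ccl9 (0.108) and Ccl7 (0.115). Ccl9, a chemokine gene, stood at 83.9 and 89.2 CPM in R848-treated and 50.6 and 50.2 in untreated KAT8-deficient cells, and at 160.0 and 159.0 in R848-treated and 57.1 and 51.5 in untreated WT cells. Those nearest to Il1b were Il12b (0.499), Cxcl3 (0.505) and H2-M2 (0.524), all at a larger distance than the nearest of Il1a. Il12b, which encodes a subunit of IL-12 and IL-23, stood at 0.33 and 0.896 CPM in R848-treated and 0.0525 and 0.0535 in untreated KAT8-deficient cells, and at 11.4 and 7.86 in R848-treated and 0 and 1.25 in untreated WT cells.

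Most other IL-1 family ligands were at or near 0, and the receptor genes called by edgeR were Il1rl1, Il18r1 and Il1r1. Of 6 other ligands, Il1f5, Il1f8 and Il1f10 had 0 counts in all libraries, Il1f6 had a count in 1 library, and Il33 and Il1f9 were low, the highest library standing at 1.99 CPM for Il33. Neither was called in any comparison by edgeR, DESeq2 or limma-voom. In each comparison 1 of the 2 had an unadjusted p under 0.05, except the interaction, which had 0. Over all genes the share with such a p ran from 11.4% for the interaction to 28.2% for the genotype difference under R848. Of 9 receptor genes 6 were tested, and over all genes 6.94% rose with R848 in WT cells. Il1rl1, which encodes the IL-33 receptor, was the 1 that rose with R848 in WT cells (0.78, SE 0.14, edgeR adjusted p = 0.0063), with the call lost without WT R848 replicate 1 (edgeR adjusted p = 0.0549). The median of the 6 was -0.03 in KAT8-deficient and 0.38 in WT cells. In KAT8-deficient cells edgeR, DESeq2 and limma-voom called 0 of the 6, with 1 at an unadjusted p under 0.05, against 13.8% of all genes. Il18r1, the binding chain of the IL-18 receptor, stood at 9.61 and 8.07 CPM in R848-treated KAT8-deficient cells against 3.73 and 3.32 in R848-treated WT cells (log2 1.33, SE 0.19, edgeR adjusted p = 0.00241). Untreated it stood at 6.77 and 5.78 CPM in KAT8-deficient against 2.28 and 3.10 in WT cells (log2 1.23, SE 0.20, edgeR adjusted p = 0.0139). It was the receptor gene higher in KAT8-deficient cells in both states, while Il1r1, the signalling IL-1 receptor, passed under R848 (0.29, SE 0.068, edgeR adjusted p = 0.0252). Most stromal and endothelial markers were also higher in KAT8-deficient cells in both states. The part of the cell mixture in the Il18r1 and Il1r1 differences was not tested. The Il18r1 call untreated was lost without KAT8-deficient untreated replicate 1 (edgeR adjusted p = 0.109) or WT untreated replicate 1 (0.0911), and the Il1r1 call without any one of the 4 R848 libraries (up to 0.144).

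The next 12 genes carry the signal from the IL-1 receptor, a path shared with Toll-like receptors. With R848 in WT cells 2 of them rose, where 6.94% of all genes did. They were the adaptor gene Myd88 (0.60, SE 0.12, edgeR adjusted p = 0.0102) and Irak3 (1.57, SE 0.16, edgeR adjusted p = 0.000351), whose product restrains the pathway. In KAT8-deficient cells edgeR and limma-voom called 0 of the 12 and DESeq2 called 2, with 2 at an unadjusted p under 0.05, against 13.8% of all genes. The median of the list was 0.06 in each genotype. Irak3 stood at 41.0 and 51.8 CPM in R848-treated KAT8-deficient cells, against 86.5 and 81.9 in R848-treated WT cells. It was the 1 of the list that was lower (-0.86, SE 0.15, edgeR adjusted p = 0.00678), where 5.47% of all genes were. Irak1, Irak4, Traf6, Tollip and the Tab genes were called in none of the comparisons. The Myd88 call was lost without WT R848 replicate 1 or 2 (edgeR adjusted p = 0.06 each), and the Irak3 difference without WT R848 replicate 1 (0.0531).

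The next list, with 12 genes tested, holds mostly other sensors, and also Nlrc3 and Card9, which are not established inflammasome sensors. Of these 12 genes, 2 rose and 3 fell with R848 in WT cells, where 6.94% of all genes rose and 6.7% fell. The median of the list was -0.24 in WT cells, against -0.03 in KAT8-deficient cells. In KAT8-deficient cells edgeR, DESeq2 and limma-voom called 0 of the 12, with 5 at an unadjusted p under 0.05, against 13.8% of all genes. Mefv, which encodes the sensor pyrin, rose by 2.05 (SE 0.17, edgeR adjusted p = 0.000189) and Nlrc4, the partner of the NAIP proteins, by 0.89 (SE 0.17, edgeR adjusted p = 0.00944). Naip1 (-1.08, SE 0.16), Nlrp1b (-0.98, SE 0.17) and Nlrc3 (-0.57, SE 0.12) fell, with edgeR adjusted p from 0.00322 to 0.0145. Under R848, Mefv stood at 6.27 and 9.15 CPM in KAT8-deficient cells against 23.7 and 25.9 in WT cells (-1.69, SE 0.17, edgeR adjusted p = 0.000638). Nlrc4 (-0.97, SE 0.17) and Naip2 (-0.30, SE 0.057) were lower there too, and Naip1 was higher (1.18, SE 0.16). Naip2 was also lower untreated (-0.33, SE 0.058, edgeR adjusted p = 0.0204). The Naip genes are related copies, alike to different degrees, and Nlrp1b has a close copy in Nlrp1a. No source used here says how reads shared between copies were counted, so their counts are uncertain. Aim2, at 21.6 to 33.2 CPM over the 8 libraries, was called in none of the comparisons. In WT cells the calls of Nlrp1b (edgeR adjusted p = 0.0549), Nlrc4 (0.0677) and Nlrc3 (0.111) were lost without WT R848 replicate 1, those of Nlrc4 (0.0619) and Nlrc3 (0.0574) without WT untreated replicate 2, and that of Nlrc3 without WT untreated replicate 1 (0.0605). Under R848 the Nlrc4 difference was lost without WT R848 replicate 1 (0.0525), and that of Naip2 without KAT8-deficient R848 replicate 1 (0.0724) or WT R848 replicate 1 (0.0777) or 2 (0.0595). Untreated, the Naip2 call was lost without any one of the 4 untreated libraries (up to 0.162) or with those 4 alone (0.0598).

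Among 11 tested regulators and cofactors of NLRP3, Gbp2 and Gbp5, the guanylate-binding protein genes, rose in both genotypes. Over all genes 0.499% rose in KAT8-deficient and 6.94% in WT cells. The median of the list was 0.08 in KAT8-deficient and 0.02 in WT cells. Gbp2 rose by 0.85 (SE 0.12, edgeR adjusted p = 0.03) in KAT8-deficient and by 1.83 (SE 0.12, edgeR adjusted p = 8.91e-05) in WT cells. Gbp5 stood at 4.90 and 6.08 CPM in R848-treated and 1.47 and 2.57 in untreated KAT8-deficient cells, and at 25.6 and 22.7 in R848-treated and 3.54 and 3.15 in untreated WT cells. It rose by 1.44 (SE 0.24, edgeR adjusted p = 0.042) in KAT8-deficient and by 2.84 (SE 0.20, edgeR adjusted p = 0.000112) in WT cells. The channel gene Panx1 rose in WT cells (0.54, SE 0.097, edgeR adjusted p = 0.00734) and Pstpip1, which binds pyrin, fell (-0.28, SE 0.066, edgeR adjusted p = 0.023). Under R848, Gbp5 (-2.13, SE 0.19), Gbp2 (-1.55, SE 0.11) and Panx1 (-0.47, SE 0.096) were lower in KAT8-deficient cells and Pstpip1 higher (0.50, SE 0.066), with edgeR adjusted p from 0.000271 to 0.0132. Untreated, Gbp2 was lower (-0.57, SE 0.12, edgeR adjusted p = 0.0371) and Pstpip1 higher (0.30, SE 0.066, edgeR adjusted p = 0.0406) in KAT8-deficient cells. Nek7, a kinase that NLRP3 needs, P2rx7, the ATP-gated channel, and Txnip were called in none of the comparisons. Replicates lay far apart for Nek7 in untreated WT cells (42.2 and 105 CPM) and for Txnip in untreated KAT8-deficient cells (186 and 114 CPM). Neither gene is thus shown to be steady. Of the list's 13 names, Irgb10 was matched to no row. In KAT8-deficient cells the Gbp2 response was lost without KAT8-deficient R848 replicate 2 (edgeR adjusted p = 0.106) or KAT8-deficient untreated replicate 1 (0.22) or 2 (0.108), and the Gbp5 response in 6 of 8 such fits (up to 0.226), all but those without KAT8-deficient R848 replicate 1 or KAT8-deficient untreated replicate 2. That Gbp5 call was also lost by limma-voom (adjusted p = 0.0702) and with the 4 KAT8-deficient libraries alone (0.154). With the 4 WT libraries alone the Pstpip1 response had an edgeR adjusted p of 0.0515. The WT response of Panx1 was lost without WT R848 replicate 1 (0.0689), and that of Pstpip1 without WT R848 replicate 1 (0.128) or 2 (0.0947) or WT untreated replicate 2 (0.113). The Panx1 difference under R848 was lost without KAT8-deficient R848 replicate 1 (0.0796) or WT R848 replicate 1 (0.113). Untreated, the Gbp2 call was lost without any one of the 4 untreated libraries (up to 0.206) and the Pstpip1 call in all 8 fits (0.0515 to 0.243). The Gbp2 call was also lost by limma-voom (0.0707), and the Pstpip1 call with the 4 untreated libraries alone (0.0964).

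Of 9 tested genes of other caspases, pore-forming proteins and their inhibitors, 4 rose with R848 in WT cells, namely Casp4, Ninj1, Serpinb9 and Cflar. Over all genes 6.94% rose there. Casp4, the mouse caspase-11 gene that senses cytosolic lipopolysaccharide, stood at 21.7 and 23.5 CPM in R848-treated and 15.1 and 15.5 in untreated KAT8-deficient cells, and at 36.9 and 33.9 in R848-treated and 14.6 and 13.4 in untreated WT cells. It rose by 0.56 (SE 0.096, edgeR adjusted p = 0.0481) in KAT8-deficient and by 1.33 (SE 0.096, edgeR adjusted p = 0.000112) in WT cells. Cflar, an inhibitor of caspase-8, rose by 0.51 (SE 0.085, edgeR adjusted p = 0.0425) and by 1.23 (SE 0.086, edgeR adjusted p = 0.0001) in the same order. Both were lower in KAT8-deficient cells under R848, Casp4 at -0.65 (SE 0.093) and Cflar at -0.62 (SE 0.084), as was Serpinb9 (-0.45, SE 0.085), and Serpinb1a, an inhibitor of neutrophil proteases, was higher (0.95, SE 0.17). In untreated cells edgeR and DESeq2 called 0 of the 9 between genotypes and limma-voom called 1, with 2 at an unadjusted p under 0.05, against 20.3% of all genes. In KAT8-deficient cells the Casp4 call was lost in all 8 fits that left out a library (edgeR adjusted p from 0.0518 to 0.299) and the Cflar call in 7 (up to 0.313), all but that without KAT8-deficient R848 replicate 1. With the 4 KAT8-deficient libraries alone neither passed (0.114 for Casp4 and 0.13 for Cflar), and Casp4 did not pass by limma-voom (0.0542). In WT cells the calls of Ninj1 and Serpinb9 were lost without WT R848 replicate 1 or 2 (0.0963 to 0.115), and also without WT untreated replicate 1 for Ninj1 (0.099) or 2 for Serpinb9 (0.0902), which DESeq2 did not call either (0.0893). Under R848 the calls of Serpinb9 and Serpinb1a were lost without KAT8-deficient R848 replicate 1 or WT R848 replicate 1 or 2 (0.0524 to 0.064). The median of the list was 0.14 in KAT8-deficient and 0.31 in WT cells.

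The difference between the responses of the 2 genotypes passed for 0 genes of these lists by edgeR and by limma-voom. DESeq2 called 0 of 6 receptor genes, 1 of 12 signalling genes and 1 of 12 genes of the sensor list. It also called 2 of 11 regulators and 2 of 9 caspase and pore genes, against 227 of all 14040 genes. At an unadjusted edgeR p under 0.05 there were 2, 2, 2, 5 and 3 in the same list order, against 11.4% of all genes, so a response called in WT cells and not in KAT8-deficient cells is not shown to differ between them.

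**Figure D4:**
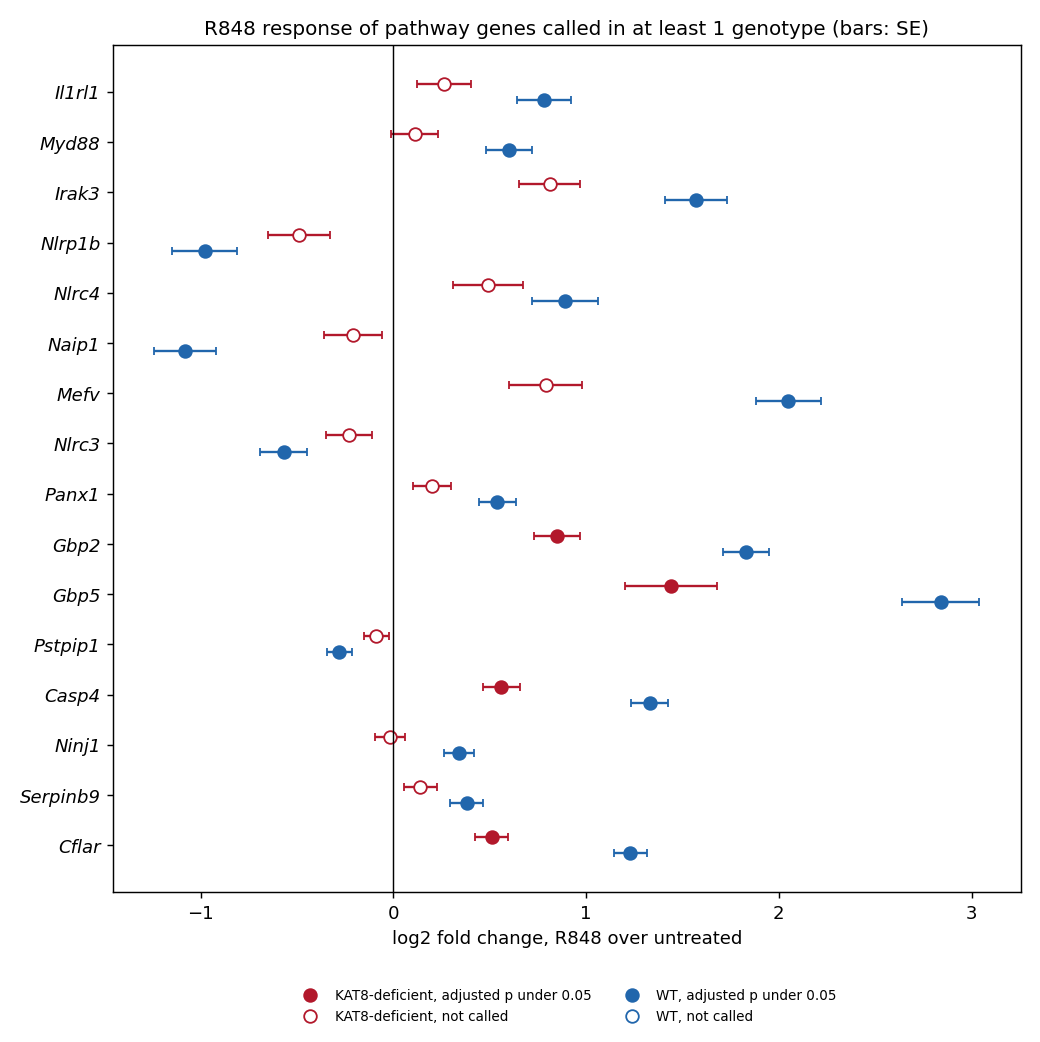
Log2 fold change of R848 over untreated (x axis) for the 16 listed genes outside the 10 that were called in at least 1 genotype, in KAT8-deficient cells (red) and WT cells (blue), with bars of 1 SE and filled points where the adjusted p was under 0.05. In WT cells the points run from -1.08 for Naip1 to 2.84 for Gbp5, and in KAT8-deficient cells 4 are filled, those of Gbp2, Gbp5, Casp4 and Cflar.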

How the data were processed

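The deposited values are whole-number counts for each Ensembl gene and library, as deposited, per the file headers. The submitters' processing notes name HISAT2, StringTie 1.3.0, edgeR and the mm10 genome, without saying what each did. No source used here gives the annotation or the counting and strand settings. Reads were from poly(A)-captured RNA, per the labels' protocols. Symbols and positions came from GENCODE M21 (GRCm38, the same build as mm10) and promoters from RefSeq (GRCm38.p6). All 8 columns were matched by name, and 34267 identifiers had a symbol.

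Genes were filtered with edgeR 4.0.16's filterByExpr, normalised by TMM and fitted with the quasi-likelihood model on all 8 libraries, 1 mean per group, leaving 4 residual degrees of freedom (common biological coefficient of variation 0.096). Tests are two-sided with Benjamini-Hochberg adjustment across 14040 genes and a threshold of 0.05. Standard errors come from the size of the log2 fold change over the root of F. CPM uses TMM library sizes. Counting intervals and floors of 3 counts cover counting error only. Replicates differed by more than counting error (chi-square per degree of freedom 7.41 to 11.96). The code was tested on simulated counts. Genes named are the 10 members, Kat8, the called members of each pathway list and the 3 genes nearest to Il1a and to Il1b. The markers named beside them and the listed genes named as not called were chosen after their values were seen. One listed gene is not reported here. The members, the lists and the alternatives were chosen with earlier results of these data known. Alternatives were DESeq2 1.42.0 (test and size factors), limma-voom (limma 3.58.1), other filters, robust spread, a replicate block, fewer libraries and leaving out each library.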

Additional observations from a re-analysis of the deposited data

How the results depend on the processing

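The number of the 10 members called moved with the settings in all 5 comparisons. For the R848 response in KAT8-deficient cells, 1 by the main analysis became 2 without the low-count filter, 2 by DESeq2, 0 with only the 4 libraries compared, and 0 to 1 when a library was left out. In WT cells 6 became 3 by DESeq2, and 2 to 6 when a library was left out. Under R848 the 5 called between genotypes became 2 to 5 when a library was left out. Untreated, 1 became 2 without the filter, 2 by DESeq2, 0 with only the 4 libraries compared and 0 to 1 when a library was left out. For the interaction, 0 became 2 without the filter, 2 by DESeq2, 1 with robust spread and 0 to 2 when a library was left out. The cause was not tested.

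Over all genes, counts moved by over 1.5 times from 89 to 274 without the filter, 235 by DESeq2, 158 with robust spread and 22 with only the 4 libraries for the KAT8-deficient response, from 600 to 384 with only the 4 libraries for the untreated genotype difference, and from 32 to 245 without the filter, 227 by DESeq2 and 148 with robust spread for the interaction. Leaving out a library gave 2 to 186, 66 to 606 and 6 to 208 for these, 858 to 1826 against 1916 for the WT response and 784 to 1894 against 1911 under R848.

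Of 385 results for single members under processing alternatives, 360 kept direction and call, 12 lost a call, 13 gained one and 0 changed sign. Of 400 with a library left out, 335 kept both, 39 lost a call, 5 gained one and 21 changed sign, the last all in values that were not called. For the KAT8-deficient response Gsdmd ran from -0.05 to 0.02, Il18 from -0.17 to 0.53 and Il18bp from -0.14 to 0.18. For the WT response Il18 ran from -0.07 to 0.27 and Il18bp from -0.02 to 0.14. For the genotype difference Pycard ran from -0.02 to 0.05 under R848, and untreated Il18bp ran from -0.21 to 0.10, Il1a from -0.05 to 0.07, Il1rap from -0.04 to 0.12 and Pycard from -0.08 to 0.03. For the interaction Il18 ran from -0.25 to 0.45, Il18bp from -0.20 to 0.11 and Pycard from -0.02 to 0.09.

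Libraries with the same replicate number did not deviate together (correlations from -0.04 to 0.05 over pairs of groups). Paired libraries with mostly technical spread could look the same, so this does not settle whether the numbers pair them. With the replicate block the members called were 1, 5, 5, 1 and 0 for the KAT8-deficient and WT responses, the genotype difference under R848 and untreated, and the interaction, and the 1 lost call among them was that of Il1rap in WT cells (edgeR adjusted p = 0.0625). Among the listed genes the block ended the calls of Gbp5 (0.0591), Casp4 (0.07) and Cflar (0.0502) in the KAT8-deficient response and of Pstpip1 untreated (0.0518).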
